A study of Homo sapiens with 2 samples.

Results

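The FADS desaturase cluster consists of FADS1, FADS2 and FADS3, which lie side by side on chromosome 11, and it was described as 3 of 19974 protein-coding genes in the domain lists of lipid-loaded and vehicle-treated liver cancer cells. Each gene was taken by its symbol and placed by the middle of its RefSeq record on hg38. The cells were HepG2, an established human liver cancer line, kept in serum-containing DMEM. In the PA+OA group they were exposed to 120 µM of palmitic acid (PA), a saturated fatty acid, and 240 µM of oleic acid (OA), a monounsaturated one, for 48 h in medium with 1% of fatty acid-free bovine serum albumin. The mock group received DMSO diluted 1 to 1000 for 48 h, and the labels do not settle whether its medium held albumin too. Each group had 1 Hi-C library, a sequencing map of which stretches of DNA lie near each other in the nucleus, and each library had 1 list of topologically associating domains, within which contacts are more frequent than across their edges. There was no replicate, so the values below describe 2 libraries and no test of the treatment was possible.

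FADS1 and FADS2 encode the delta-5 and delta-6 desaturases of the endoplasmic reticulum, which insert double bonds into dietary linoleic and alpha-linolenic acid and their elongated products, and so lead to arachidonic, eicosapentaenoic and docosahexaenoic acid. FADS3 encodes a related desaturase that acts on sphingoid bases. The liver expresses FADS1 and FADS2, and sterol regulatory element-binding proteins and the fatty acid receptor PPARA are known to regulate them. Domains limit which enhancers a promoter usually meets, so the position of an edge relative to such a cluster tells which neighbours share its surroundings. Expression was not measured in these lists, and a domain says nothing of the level of a gene or of its product.

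The 3 genes spanned 92.6 kb, from 61799627 to 61892224. FADS1 is transcribed towards lower positions, FADS2 towards higher ones and FADS3 towards lower ones, so FADS1 and FADS2 stand head to head and FADS2 and FADS3 tail to tail. The records of FADS1 and FADS2 overlapped by 801 bases at their starts, and 6171 bases separated FADS2 from FADS3. The promoters are shown because they carry the starts of the 3 genes, whose distance to the domain edge is given below. Each window holds 250 bases before and 50 bases after a start in the RefSeq promoter table of build GRCh38.p14, and all 3 genes had an entry. The windows are on chr11:61816954-61817253 (minus strand) for FADS1, chr11:61816154-61816453 (plus strand) for FADS2 and chr11:61891496-61891795 (minus strand) for FADS3. Capitals mark the GC box GGGCGG and the CCAAT box on either strand.

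FADS1: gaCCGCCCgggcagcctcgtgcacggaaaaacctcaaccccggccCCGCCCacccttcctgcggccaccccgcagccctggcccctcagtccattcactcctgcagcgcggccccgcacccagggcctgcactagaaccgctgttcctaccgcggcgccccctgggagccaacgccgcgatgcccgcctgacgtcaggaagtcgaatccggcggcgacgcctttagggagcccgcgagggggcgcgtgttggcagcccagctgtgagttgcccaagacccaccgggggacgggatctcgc

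FADS2: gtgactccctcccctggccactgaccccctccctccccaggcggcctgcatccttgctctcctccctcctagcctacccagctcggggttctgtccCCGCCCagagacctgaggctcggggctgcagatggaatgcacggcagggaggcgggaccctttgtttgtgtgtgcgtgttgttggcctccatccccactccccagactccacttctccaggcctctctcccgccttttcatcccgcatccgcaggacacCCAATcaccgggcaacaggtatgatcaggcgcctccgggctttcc

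FADS3: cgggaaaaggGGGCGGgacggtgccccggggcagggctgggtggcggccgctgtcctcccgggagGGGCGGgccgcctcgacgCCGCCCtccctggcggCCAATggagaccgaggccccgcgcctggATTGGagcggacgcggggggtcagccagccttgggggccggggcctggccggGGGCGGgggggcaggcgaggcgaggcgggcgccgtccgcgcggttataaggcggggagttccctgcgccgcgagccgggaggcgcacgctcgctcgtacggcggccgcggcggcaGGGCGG

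The FADS3 window held 5 GC boxes and 2 CCAAT boxes, the FADS1 window 2 GC boxes and the FADS2 window 1 of each. A second FADS2 start in the table, at 61816203, had none of these in its window. A GC box occurred in 45.0% and a CCAAT box in 34.6% of the 35116 windows of the table, so both letter strings are common. The FADS3 window was 81% G and C, the FADS1 window 72% and the printed FADS2 window 65%, against a median of 58.7% over all windows. None of the 4 windows of the cluster contained a TATA box (TATAAA), an E-box (CACGTG) or a sterol regulatory element (TCACNCCAC), which occurred in 11.5%, 7.26% and 1.13% of all windows. The search covered both strands, and no marked motifs overlapped each other. The windows do not reach the domain edges described here.

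All 3 desaturase genes lay in a single domain, and its coordinates were the same in the PA+OA list and in the mock list. It ran from 61800001 to 62120000 in the PA+OA list, and from 61800001 to 62120000 in the mock list. Its size was 320 kb, or 8 bins of 40 kb, in each. FADS1, FADS2 and FADS3 are neighbours in 1 domain and therefore count as 1 observation rather than 3. Over all protein-coding genes, 33.3% lay in a domain of equal coordinates in both lists. A looser class, called kept here, had both edges matched within 1 bin and no edge of the other list farther inside, and it held 40.4% of genes by their PA+OA domain and 40.5% by their mock domain. The FADS domain met both definitions.

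**Figure D1:**
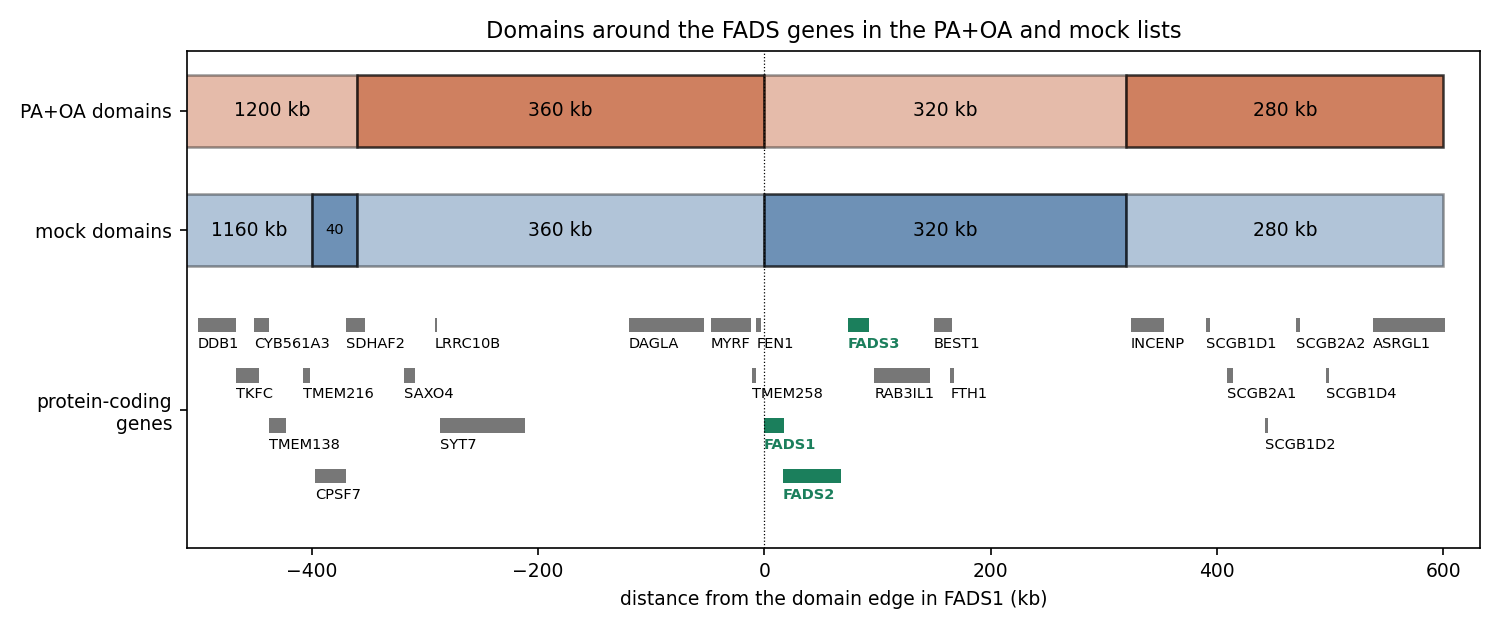
Domains of the PA+OA list (upper row) and the mock list (lower row) around the FADS genes, with size in kb, above the records of the FADS genes (green) and of the neighbours within 500 kb (grey). The horizontal axis is the distance in kb from the domain edge inside FADS1 (dotted line), domains cut off at the left are labelled with their full size, and shading only separates adjacent domains. The 360, 320 and 280 kb domains are the same in both rows, and the mock row has a separate 40 kb domain at the left.

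The cluster lay against one side of this domain. The middle of FADS1 was 8.32 kb from the lower edge and 311.7 kb from the upper edge in both lists. That of FADS2 was 41.8 kb from the lower and 278.2 kb from the upper edge, and that of FADS3 was 82.9 kb and 237.1 kb away. The cluster thus took up the lower 28.8% of the domain. The transcription starts of the table followed the same order, with the FADS2 starts 16.2 and 16.4 kb, the FADS1 start 17.0 kb and the FADS3 start 91.5 kb above the lower edge. FADS1 and FADS2 therefore had their starts within 1 bin of a listed edge, while FADS3 did not. The FADS1 and FADS2 starts lie next to each other and count as 1 observation. The share of all gene starts this near to an edge was not counted.

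The lower edge, at 61800000, stood inside the FADS1 record in both lists. FADS1 began 373 bases below it, at the end of the gene where transcription stops, so that 374 bases, or 2.15% of the record of 17377 bases, fell into the next domain. This distance is much finer than the 40 kb step of the lists, so whether the edge lies within FADS1 or beside it is not resolved. No listed edge of either list lay between the middle of FADS1 and the far end of FADS3, and thus none within FADS2 or FADS3 or between them. Among all protein-coding genes, 4.03% had an edge of both lists at the same position inside the record, and 12.2% had one inside or within 1 bin of it. FADS1 belonged to both sets and FADS2 to the second. The upper edge, at 62120000 in both lists, was 227.8 kb beyond FADS3 and 4011 bases before INCENP, which encodes a scaffold of the chromosomal passenger complex of mitosis.

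Within 500 kb of the cluster, the lists gave the same set of boundaries after edges within 1 bin were merged, 3 in the PA+OA list and 3 in the mock list. The third was at 61440000 inside SDHAF2, which encodes an assembly factor of succinate dehydrogenase. The mock list held 1 further edge, at 61400000, next to the cilium gene TMEM216, 40 kb from the shared one and 399.6 kb below the FADS1 record. It set off a mock domain of 40 kb, a single bin, that held CPSF7, which encodes a subunit of a pre-mRNA cleavage factor, and the middle of SDHAF2. In the PA+OA list, both genes lay in a domain of 1200 kb from 60240001 to 61440000, where the mock list had 1160 kb from 60240001 to 61400000. A difference of 1 bin is at the resolution of the lists. Just beyond the window, both lists had an edge at 62400000, inside ASRGL1, and 1 at 62720000, inside HNRNPUL2.

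All boundaries within 500 kb of the middles of FADS1, FADS2 and FADS3 were matched within 1 bin, which was so for 37.1% of protein-coding genes. That share required a boundary within 500 kb in each list, so genes deep inside long domains did not count towards it. The middle of FADS2 was 5558 kb from the nearest boundary found in 1 list only, FADS1 was 5592 kb and FADS3 5517 kb away, and the median over all protein-coding genes was 852 kb. As far as FADS2 or farther were 4.78% of genes, which are also clustered and not independent. The nearest such boundary above was the mock boundary at 67400000, followed by the PA+OA boundary at 67600000. Below, the nearest were the PA+OA boundary at 55400000 and the mock boundary at 55320000, which are 2 bins apart.

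The 24 protein-coding neighbours within 500 kb fell into the domains beside the cluster, and only 3 of them shared its domain. These were RAB3IL1, which encodes an exchange factor of Rab proteins, BEST1, an anion channel gene of the retinal pigment epithelium, and FTH1, the gene of the ferritin heavy chain. They were the same 3 genes in the PA+OA list and in the mock list. The middle of RAB3IL1 was 121.8 kb, that of BEST1 157.7 kb and that of FTH1 166.0 kb above the lower edge. With the desaturases, the domain held 6 protein-coding genes, against a median of 5 over gene-bearing domains of either list. It also held 9 records of other kinds, including MIR1908 inside the FADS1 record, MIR6746 inside the FADS3 record and LINC02733. The stretch of 152.4 kb from FTH1 to the upper edge had no protein-coding record.

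The genes on the FADS1 side lay across the shared edge. FEN1, the gene of a flap endonuclease of DNA replication, had its middle 4.93 kb below the edge, and TMEM258, which encodes a subunit of the oligosaccharyltransferase, 9.23 kb below it. MYRF, a transcription factor gene of myelin formation, lay 29.4 kb and DAGLA, the gene of the lipase that makes the endocannabinoid 2-arachidonoylglycerol from diacylglycerol, 86.3 kb below it. By the position of their middles these 4 genes are nearer to FADS1 than FTH1, which shares its domain. The middles of FEN1, TMEM258 and MYRF, like that of FADS1, were closer to the edge than the 40 kb step of the lists. On which side of the edge these genes fall is therefore not resolved, and no separation from FADS1 is read from it. As listed, the 4 genes lay in a domain from 61440001 to 61800000, of 360 kb in the PA+OA list and 360 kb in the mock list. SYT7, a calcium sensor gene of exocytosis, LRRC10B and SAXO4 lay there too. This domain held 7 protein-coding genes in each list.

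Of the other neighbours, 7 lay above the FADS domain, in 280 kb from 62120001 to 62400000 in both lists. They were INCENP, the secretoglobin genes SCGB1D1, SCGB2A1, SCGB1D2, SCGB2A2 and SCGB1D4, which encode small secreted proteins, and ASRGL1, the gene of an asparaginase. The remaining 7 lay farthest below. DDB1, which encodes a damage-binding protein and ubiquitin ligase adaptor, the triokinase gene TKFC, CYB561A3, TMEM138 and TMEM216 were in the 1200 kb domain of the PA+OA list, against the 1160 kb domain of the mock list. CPSF7 and SDHAF2 were in that PA+OA domain too, against the single-bin mock domain. Equal coordinates in both lists thus held for 17 of 24 neighbours (70.8%, Wilson 95% interval 50.8 to 85.1%), against 33.3% of all protein-coding genes, and the 7 others differed by the 1 edge at 61400000. All 24 were in kept domains (interval 86.2 to 100%), against 40.4% of all protein-coding genes in the PA+OA list and 40.5% in the mock list. For CPSF7 and SDHAF2, the single-bin mock domain met this definition because both of its edges lie within 1 bin of 61440000. The PA+OA list has no such domain. None was within 50 kb of a boundary of 1 list only, which 5.8% of protein-coding genes were. The intervals cover counting error only, and since these genes share 4 PA+OA domains and 5 mock domains, they overstate the precision.

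The stretch of equal coordinates in the PA+OA and mock lists went well beyond the cluster on one side. From 61440001 to 67320000, over 5.88 Mb, 12 domains in a row had equal coordinates in the PA+OA and mock lists, and the FADS domain was the second of them. The 12 domains measured 360, 320, 280, 320, 2040, 560, 240, 160, 800, 320, 240 and 240 kb, and they held 199 protein-coding genes. In the whole genome there were 383 such runs, entries of zero length left out, with a median of 2 domains. The run with the FADS genes held the most domains of any, ahead of 2 runs of 11, on chromosomes 1 and 10. It was not the longest in base pairs, as 22 runs exceeded 5.88 Mb. The number of domains in a run depends on how short its domains are, and no zero-length entry lay inside this one in either list. Genes singled out after the values were seen include BSCL2, the gene of the lipid droplet protein seipin, in the fourth domain, the nuclear receptor gene ESRRA in the fifth, RELA in the eighth and the pyruvate carboxylase gene PC in the eleventh.

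**Figure D2:**
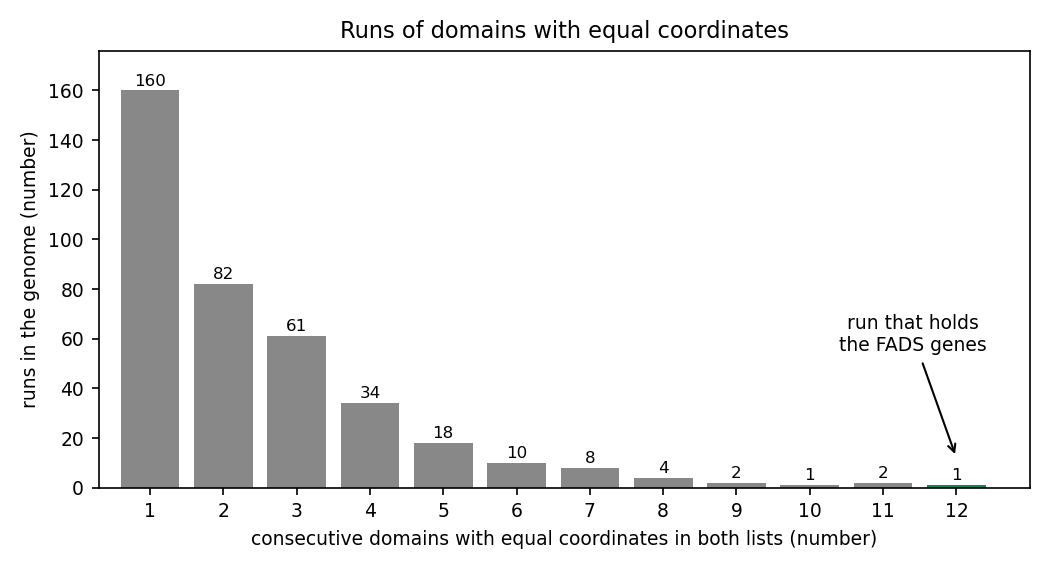
Number of runs in the genome (vertical axis, counts printed above the bars) by the number of consecutive domains with equal coordinates in the PA+OA and mock lists (horizontal axis). The run that holds the FADS genes is the only one of 12 domains, and 160 of 383 runs consist of 1 domain.

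With boundaries matched within 1 bin instead, the stretch free of boundaries of 1 list only went from 55400000 to 67400000, over 12 Mb. It held 18 boundaries in the PA+OA list and 18 in the mock list, of which 17 in each list had an edge at the same position in the other. On the whole of chromosome 11, 144 of 181 PA+OA boundaries and 143 of 178 mock boundaries were matched.

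The domain of the desaturases was short in both lists. The median gene lay in a domain of 1560 kb in the PA+OA list and of 1480 kb in the mock list, and the median over the genes of chromosome 11 was 800 kb in the PA+OA list and 920 kb in the mock list. Domains of at most 320 kb held 6.86% of protein-coding genes in the PA+OA list and 6.78% in the mock list. Counted over domains rather than genes, the difference was smaller. With zero-length entries left out, the median domain of chromosome 11 measured 520 kb in the PA+OA list and 500 kb in the mock list.

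**Figure D3:**
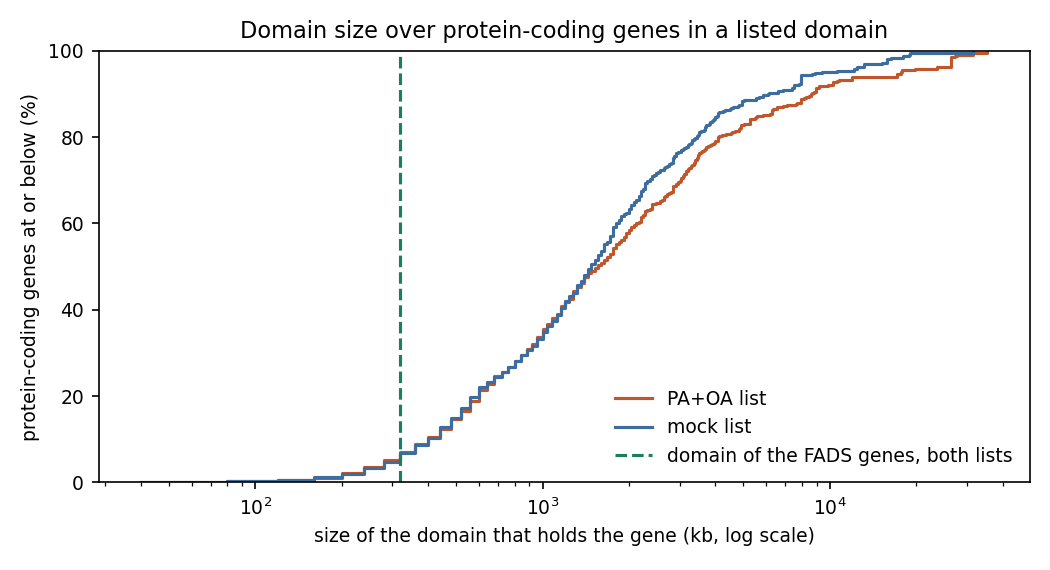
Percentage of protein-coding genes (vertical axis) whose domain is at most the size on the horizontal axis (kb, log scale), for the PA+OA and mock lists over the genes that lie in a listed domain. The dashed line at 320 kb marks the domain of the FADS genes in both lists, near the lower end of both curves.

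Desaturases work in a chain with elongases and electron donors. A list of 21 genes of these and related families outside the cluster is called the synthesis list here. Not all of its genes belong to that chain, the dihydroceramide desaturase gene DEGS1 being an example. The domains at its genes were matched between the PA+OA and mock lists about as often as those of all genes. Of the 21 genes, 9 (42.9%, interval 24.5 to 63.5%) lay in kept domains in the PA+OA list and 9 in the mock list. The shares of all protein-coding genes by the same lists were 40.4% and 40.5%. Equal coordinates held for 7 of 21 (33.3%), the same share as the 33.3% of all protein-coding genes. The domain was longer in the PA+OA list for 5 genes, shorter for 9 and equally long for 7. The median over the 21 was 1120 kb in the PA+OA list and 1240 kb in the mock list. Over all protein-coding genes it was 1560 kb in the PA+OA list and 1480 kb in the mock list. The shares of all genes with a longer or shorter PA+OA domain were not counted, so no direction is read from these counts. None of the 21 had its middle within 50 kb of a boundary of 1 list only, where 5.8% of all protein-coding genes lay, and the upper bound of the interval for 0 of 21 was 15.5%.

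ELOVL2 and ELOVL5, the elongases that extend the products of FADS1 and FADS2, both lay in domains that differed. ELOVL2 was in 640 kb from 10920001 to 11560000 on chromosome 6 in the PA+OA list, against 240 kb from 10840001 to 11080000 in the mock list, and its middle was 67.5 kb from a boundary of 1 list only, the nearest of all 21. ELOVL5, also on chromosome 6, was in 560 kb from 53080001 to 53640000 in the PA+OA list. In the mock list its domain measured 640 kb, from 53080001 to 53720000. Both ends of that mock domain had a PA+OA edge within 1 bin, and the PA+OA edge at 53640000 lay inside it. ELOVL4, which makes very long polyunsaturated chains in the retina, was in 2400 kb in the PA+OA list and 6240 kb in the mock list, and ELOVL7 in 2320 kb in the PA+OA list and 1600 kb in the mock list. For the elongase ELOVL3 the difference was 1 bin, with 800 kb in the PA+OA list and 840 kb in the mock list. The elongase genes ELOVL1 and ELOVL6 were in domains of equal coordinates, of 1560 and 1120 kb. ELOVL1, ELOVL3, ELOVL6 and ELOVL7 act mainly on saturated and monounsaturated chains, so the genes of that kind were in domains of either sort.

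Of the other desaturases, the stearoyl-CoA desaturase gene SCD lay in a domain of 240 kb that was equal in both lists, shorter still than that of the FADS genes. Its relative SCD5 was in 480 kb in the PA+OA list and 840 kb in the mock list. DEGS1, the gene of the dihydroceramide desaturase, was in 960 kb in the PA+OA list and 1240 kb in the mock list, whereas DEGS2 differed by 1 bin, with 1200 kb in the PA+OA list and 1240 kb in the mock list. FADS6, a member of the desaturase family on chromosome 17, lay in a domain that measured 3160 kb in the PA+OA list and 3840 kb in the mock list.

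The genes of the remaining elongation steps and of electron supply were divided as well. The reductase and dehydratase genes HSD17B12, in 560 kb, and HACD3, in 2280 kb, and the cytochrome b5 gene CYB5A, in 3480 kb, lay in domains that were equal in both lists. HACD2 was in 680 kb in the PA+OA list and 1440 kb in the mock list, TECR in 960 kb in the PA+OA list and 2400 kb in the mock list, and HACD1 in 1480 kb in the PA+OA list and 840 kb in the mock list. Domains of over 20 Mb in the PA+OA list held HACD4, with 26440 kb against 7400 kb in the mock list, and CYB5R3, with 26360 kb against 2160 kb in the mock list, on chromosomes 9 and 22. The PA+OA domains there are among the longest of that list, and what sets their length was not tested.

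**Figure D4:**
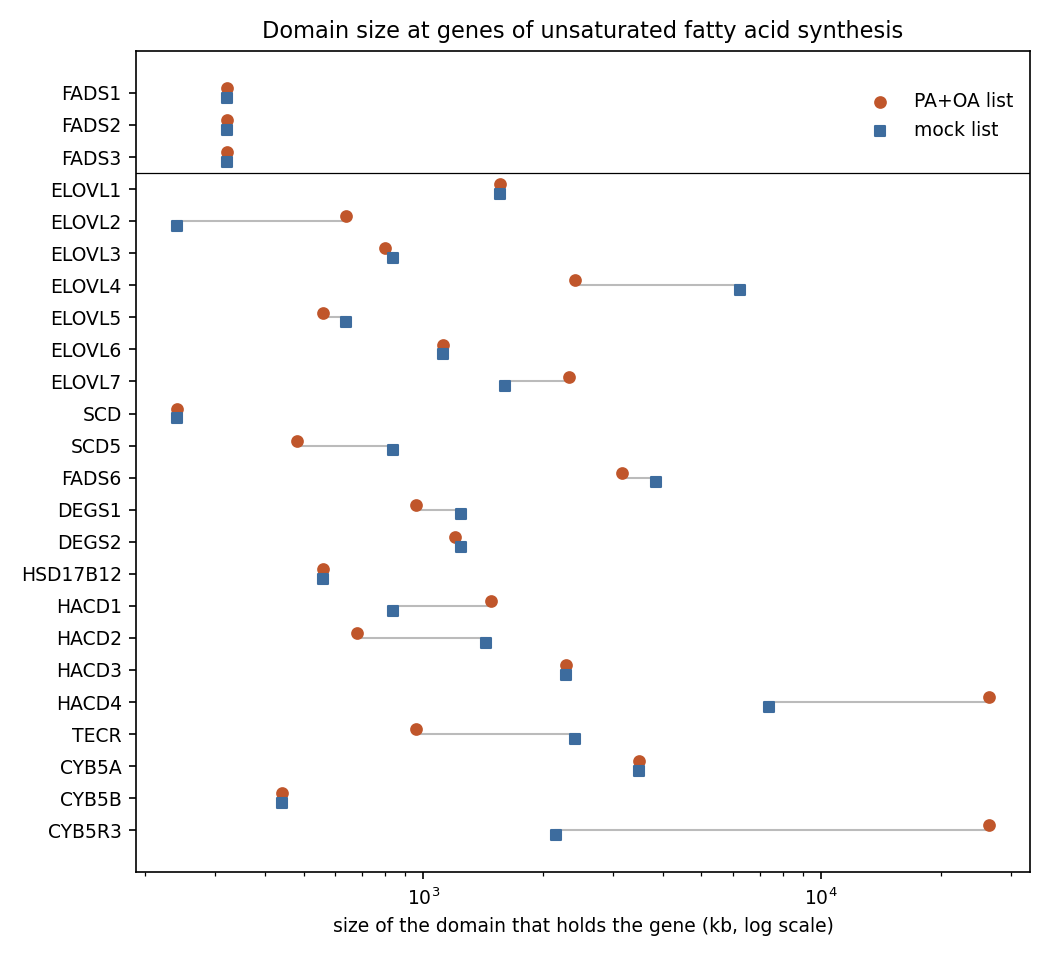
Size of the domain that holds each gene (horizontal axis, kb, log scale) in the PA+OA list (circles) and the mock list (squares). The FADS genes are above the line and the 21 genes of the synthesis list below it. The 3 FADS genes are at 320 kb in both lists, and 7 of the 21 others (33.3%) lie in domains of equal coordinates, as do 33.3% of all protein-coding genes.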

How the data were processed

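Hi-C was performed in HepG2 cells, with 1 library in the PA+OA group and 1 in the mock group, grouped by title. Reads were handled with HiC-Pro and FastQC on build hg38, per the submitters' processing notes. Not given in the sources used here are the caller of the domains, the scaling of contacts and the depth, all of which a list can depend on. The deposited lists give positions in base pairs and no other value. All 2524 PA+OA and 2679 mock entries stood on a 40 kb grid, and 108 PA+OA and 136 mock entries had zero length.

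Edges within 1 bin were merged into boundaries, and boundaries within 1 bin were matched. Genes and promoters came from RefSeq (GRCh38.p14) and were placed by the record's middle, since the gene table has no strand. All 21 symbols of the synthesis list matched, and 1 further gene of the planned list is not reported here. The text names the FADS genes, every protein-coding neighbour within 500 kb, the gene nearest to each boundary, and those of the synthesis list whose domains differ, with up to 6 that do not. The members and lists were chosen with earlier results of these data known. Functions were tested on simulated lists. Python 3.11.15, pandas 2.3.3, scipy 1.17.1 and matplotlib 3.10.9 were used. No test of the treatment was made, with 1 library per group. Contact matrices were not analysed here.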

Additional observations from a re-analysis of the deposited data

How the results depend on the processing

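Settings tried for the FADS genes were both ends of the record, a tolerance of 0 or 2 bins or 100 kb, zero-length entries left out, and, added after seeing the data, the transcription start. All 3 genes were in a kept domain under each of these 7 settings. They shared 1 domain under these settings except the lower end of the record, by which FADS1 fell into the domain below and 2 of 3 genes shared a domain. Boundaries in the window were matched in 100% under 7 settings, with windows of 250 and 1000 kb and edges not merged among them. At a tolerance of 0 bins the mock edge at 61400000 stayed merged with 61440000, and with edges not merged the tolerance stayed at 1 bin. Leaving edges unmerged at 0 bins was not tried, and there this mock edge would have no match. With a tolerance of 0 bins, 70.8% of the neighbours were in kept domains, because of the mock edge at 61400000, against 100% under the 7 other settings. The synthesis list had 7 to 10 members in kept domains under 5 settings. No paired analysis was possible because each group had 1 library and no test was made. The lists give no depth, so no error can be set on an edge, and the part of depth or of the caller in any difference was not tested.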
